A study of Mus musculus with 47 samples.

Results

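Potassium channel genes were taken as the genes whose symbol begins with Kcn, which gave 78 of the 14221 genes counted in mouse hypothalamus. They were sorted by name into 36 voltage-gated (Kv) pore subunits, 9 accessory subunits of Kv channels, 13 inward rectifiers, 9 tandem-pore channels, 8 subunits of calcium-activated channels, 2 sodium-activated channels and Kcnrg, a channel regulator that forms no pore. The mice were male and 11 weeks old on their labels, carried the ob/ob leptin mutation in every group, vehicle groups included, and received 1 intracerebroventricular (icv) injection of 3 µg FGF1 (fibroblast growth factor 1) or of vehicle, with the vehicle-treated mice pair-fed to the FGF1-treated ones. Each library came from 1 mouse, and different mice were used on each day. Day 1 had 10 mice given FGF1 and 4 given vehicle, Day 42 had 5 of each, and these vehicle-treated mice are labelled non-diabetic. On Day 5 there were 9 FGF1-treated mice, 7 vehicle-treated mice labelled non-diabetic and 7 labelled diabetic. Working leptin is absent in this model, so no group shows the gene levels of a mouse that has it.

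Potassium channels let potassium leave the cell and so set the resting voltage and end each action potential. Kv channels open when a neuron fires and rely on accessory subunits for their gating. Inward rectifiers hold the resting voltage and, in glia, carry the potassium that neurons release, while tandem-pore channels give a steady leak. Calcium-activated channels slow firing after calcium entry. In the hypothalamus, channels that are closed by ATP couple the firing of feeding neurons to glucose, and the inward rectifier Kcnj13 has been tied to signalling by the melanocortin-4 receptor.

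Total counts ran from 1243280 to 47082403 per library, with FGF1-treated mouse 1 of Day 1 at the lowest. The libraries of each day carry a single preparation code that no other day has, so day and preparation cannot be told apart. Levels are therefore compared within a day. Levels are given as CPM, the counts of a gene relative to the scaled size of its library, and a gene was called where its adjusted p was under 0.05 and its log2 fold change (log2 FC) was beyond 0.5 in either direction. In 1 library, FGF1-treated mouse 5 of Day 42, the markers of several regions and cell types, foremost forebrain neurons and choroid plexus, lay outside the range of the other 9 mice of that day, and Day 42 results are followed by the value without it.

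The inward rectifiers held the members with the largest fall and one of the largest rises on Day 1, so the 250 bases before the start of the 4 called inward rectifiers are shown, from RefSeq on GRCm38.p6. Kcnj10 lies at chr1:172340960-172341209 on the plus strand, Kcnj5 at chr9:32344345-32344594, Kcnj8 at chr6:142571615-142571864 and Kcnj13 at chr1:87394730-87394979, all 3 on the minus strand. Each is written 5′ to 3′, with matches to the TATA box (TATAAA), the CCAAT box (CCAAT) and the GC box (GGGCGG), on either strand, in capitals.
Kcnj10: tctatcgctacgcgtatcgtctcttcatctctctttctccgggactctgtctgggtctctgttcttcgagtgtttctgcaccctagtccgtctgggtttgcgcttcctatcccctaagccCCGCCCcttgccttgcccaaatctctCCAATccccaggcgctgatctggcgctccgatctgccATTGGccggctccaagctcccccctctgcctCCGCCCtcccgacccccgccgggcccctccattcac
Kcnj5: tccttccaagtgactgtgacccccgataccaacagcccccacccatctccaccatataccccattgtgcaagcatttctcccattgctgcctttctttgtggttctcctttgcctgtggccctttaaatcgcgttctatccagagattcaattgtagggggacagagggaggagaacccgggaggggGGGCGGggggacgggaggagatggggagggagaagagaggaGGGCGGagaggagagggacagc
Kcnj8: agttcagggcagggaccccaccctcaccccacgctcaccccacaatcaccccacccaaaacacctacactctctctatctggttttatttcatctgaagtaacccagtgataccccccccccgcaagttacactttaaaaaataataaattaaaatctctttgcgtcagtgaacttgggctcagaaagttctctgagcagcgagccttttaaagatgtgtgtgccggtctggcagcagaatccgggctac
Kcnj13: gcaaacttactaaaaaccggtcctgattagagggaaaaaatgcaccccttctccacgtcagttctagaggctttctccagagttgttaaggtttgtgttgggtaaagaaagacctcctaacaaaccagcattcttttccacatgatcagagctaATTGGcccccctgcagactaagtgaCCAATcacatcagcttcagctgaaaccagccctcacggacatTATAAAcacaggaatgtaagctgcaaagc
The window of Kcnj10, the glial channel, held 17 CpG pairs and a GC content of 62.0%, with 2 GC boxes and 2 CCAAT boxes. That of Kcnj13, an epithelial channel, held 3 CpG pairs, a GC content of 45.2%, 1 TATA box and 2 CCAAT boxes. The window of Kcnj5 held 2 GC boxes at a GC content of 58.0%, and that of Kcnj8 held none of the 3 boxes at 49.2%. Over all 32851 windows of this length the median GC content was 52.4%, and 12.4% held a TATA box, 33.8% a CCAAT box and 32.7% a GC box. The first motifs searched were AP-1 (TGANTCA), STAT (TTCNNNGAA), CRE (TGACGTCA) and ETS (CCGGAAG), which were found in 6.75%, 7.02%, 1.55% and 6.91% of all windows and in none of these 4. The 3 boxes were added after that result was seen. Of the 78 genes, 56 had an entry in this table, with 79 windows between them, of which 3 held AP-1, 7 STAT, 0 CRE and 2 ETS. A TATA box was in 3 of the 79 (3.8%), a CCAAT box in 24 (30.4%) and a GC box in 36 (45.6%).

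Per kilobase of exon, the order of the members depended on the day, so levels are given by group. The glial inward rectifier Kcnj10 was the highest member in each group of Days 1 and 42, at 55.9 to 88.3 CPM per kb. On Day 5 it was at 13.1 to 14.0 CPM per kb, and 9 to 13 members lay above it, led by Kcnd2 in FGF1-treated mice and by Kcnab2, a cytoplasmic subunit of Kv channels, in both vehicle groups. Among group means, Kcnip4, a calcium-binding partner of Kv4 channels, ran from 22.2 to 34.4 CPM per kb. The tandem-pore gene Kcnk1 at 19.9 to 32.0 CPM per kb, Kcnma1, the pore of the large-conductance calcium-activated channel, at 7.94 to 19.4 CPM per kb and Kcnt1 at 9.46 to 27.5 CPM per kb had the highest mean of their families in all 7 groups. Kcnd2, which encodes Kv4.2, was the highest Kv pore gene on Day 5 alone, at 30.1 to 31.4 CPM per kb, and had 13.9 to 24.7 CPM per kb on the other days. The lowest member was Kcng3 on Day 1, at 0.00404 and 0.0212 CPM per kb, Kcnmb1 on Day 5, at 0.318 to 0.401 CPM per kb, and Kcnq1 on Day 42, at 0.117 and 0.118 CPM per kb. Differences in this order were not tested. Not divided by length, the group means of Kcnj10 were 302 and 439 CPM on Day 1, 70.9 to 76.0 CPM on Day 5 and 468 and 478 CPM on Day 42.

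On Day 1, 18 of the 78 genes were called between FGF1 and vehicle by the quasi-likelihood test of edgeR, 8 higher and 10 lower in FGF1-treated mice. Over all genes 19.5% were called, 11.5% higher and 8.05% lower, so the share of the members, 23.1%, lay near the background. With library sizes scaled by DESeq2 factors, 6 were higher and 13 lower, and the share of higher genes among all calls also fell, from 58.7% to 50.8%. The median log2 FC was -0.05 over the members and 0.01 over all genes. An adjusted p under 0.05 with no limit on size was reached by 34 members, where 45.0% of all genes reached it, and 15 of the 34 missed it in at least 1 of 5 fits that each left out a mouse (a vehicle-treated mouse, or the shallowest FGF1 library), among them 4 of the 18 called genes. The groups did not overlap for 12 members, 4 above and 8 below, and for 14.4% of all genes. Summed, the members took 0.338% to 0.371% of the counts in FGF1-treated mice and 0.373% to 0.406% in vehicle-treated mice. The 10 neuron markers, of which 0 were called by edgeR and 3 had an unadjusted p under 0.05, summed to 4718 to 5807 CPM in FGF1-treated and 5787 to 7015 CPM in vehicle-treated mice. Of 14 hypothalamus markers 1 was higher and 3 lower, and they summed to 925 to 1347 CPM against 1320 to 1768 CPM. The part of either list in the levels of the neuronal channels was not tested.

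**Figure D1:**
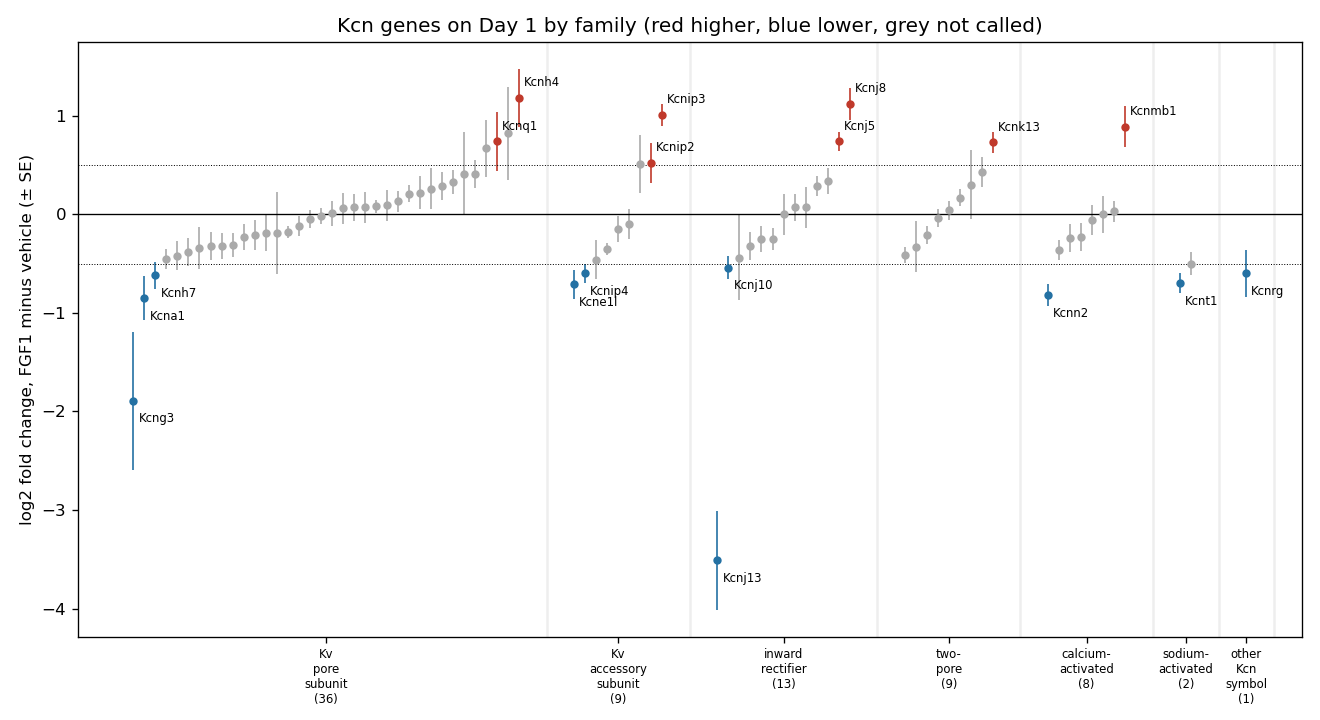
Each point is 1 Kcn gene on Day 1, with the log2 fold change of FGF1 minus vehicle and its SE on the vertical axis and the genes ordered within their family, whose size is in parentheses. Dotted lines mark 0.5 and -0.5, and the 18 called genes are named, 8 above and 10 below zero, with Kcnj13 the lowest at -3.51.

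Of the 13 inward rectifiers, 2 were higher and 2 lower on Day 1. Kcnj10 encodes Kir4.1, through which astrocytes and oligodendrocytes take up potassium. Its level ran from 204 to 357 CPM in FGF1-treated mice (median 311), and was 373, 495, 436 and 454 CPM in vehicle-treated mice. Every FGF1-treated mouse lay below every vehicle-treated mouse, and the log2 FC was -0.54 ± 0.12 (SE, adjusted p 0.000178 by edgeR). The fall was close to the limit on size: without vehicle-treated mouse 2 it was -0.48, and under quantile normalization with limma it was -0.46, both past the adjusted p but short of 0.5. Its partner Kcnj16, which encodes Kir5.1 and joins Kir4.1 in one channel, had a log2 FC of 0.29 ± 0.10 (adjusted p 0.0145, and 0.052 without vehicle-treated mouse 3), in the opposite direction and under the limit on size. Its mean was 73.4 ± 9.40 CPM (SD, n = 10) against 59.6 ± 5.32 CPM (SD, n = 4).

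Of 12 astrocyte markers, 3 were higher and 3 lower on Day 1, and their summed level was 5388 to 6409 CPM in FGF1-treated and 4916 to 5602 CPM in vehicle-treated mice. Gfap, the filament of reactive astrocytes, rose (log2 FC 2.81 ± 0.19), and the gap junction genes Gjb6 and Gja1 fell (log2 FC -1.46 ± 0.09 and -0.77 ± 0.08). All 3 passed by edgeR, with adjusted p of 9.91e-17, 1.07e-17 and 2.16e-11. Of 8 markers of mature oligodendrocytes, which also use Kir4.1, 7 were lower, and their summed level was 2329 to 4244 CPM against 3869 to 5571 CPM. The part of either cell type in the level of Kcnj10 was not tested, and in whole tissue fewer cells of a type and less RNA per cell cannot be told apart.

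Kcnj13 encodes Kir7.1, a channel of the choroid plexus that is also made by some hypothalamic neurons. It was counted at 0 in 3 of 10 FGF1-treated mice and reached 0.815 CPM in the highest (median 0.0859). Vehicle-treated mice had 1.90, 3.70, 2.14 and 1.83 CPM, all above every FGF1-treated mouse, at 67 to 131 counts each. The log2 FC was -3.51 ± 0.50 (adjusted p 1.35e-07 by edgeR), which was the largest change of any member on Day 1. Of the 7 choroid plexus markers with counts, 2 were lower, and their summed level was 119 to 196 CPM in FGF1-treated and 229 to 347 CPM in vehicle-treated mice. The part of choroid plexus tissue in this difference was not tested. An exon of Kcnj13 overlaps Gigyf2 on the other strand, and the counting was not stated to use strand.

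Kcnj8 encodes Kir6.1, the pore of ATP-closed channels in pericytes and smooth muscle. It ran from 4.56 to 10.6 CPM in FGF1-treated mice (median 5.54), and was 3.11, 2.34, 2.12 and 2.73 CPM in vehicle-treated mice. The groups did not overlap, and the log2 FC was 1.12 ± 0.16 (adjusted p 1.54e-07 by edgeR). Of 8 pericyte markers 2 were higher and 2 lower, and their summed level was 164 to 260 CPM against 205 to 272 CPM. Abcc9, the partner of Kir6.1, had a log2 FC of 0.13 ± 0.13 (adjusted p 0.457). The neuronal pore of this kind, Kcnj11, had 0.07 ± 0.14 (adjusted p 0.739), with a value just under zero in 3 alternatives, and its partner Abcc8 had -0.24 ± 0.14 (adjusted p 0.175).

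Kcnj5, a subunit of the rectifiers opened by G proteins, ran from 25.3 to 40.6 CPM in FGF1-treated mice (median 38.1). Vehicle-treated mice had 21.5, 20.2, 26.1 and 19.6 CPM, so that only the lowest FGF1-treated mouse lay below the highest vehicle-treated mouse. The log2 FC was 0.74 ± 0.10 (adjusted p 9.09e-08 by edgeR). Its relatives Kcnj3, Kcnj6 and Kcnj9 were not called, with log2 FC of -0.32, 0.34 and -0.25 (adjusted p 0.0576, 0.0298 and 0.108). Kcnj6 was thus short of the limit on size alone, and its adjusted p was 0.11 without vehicle-treated mouse 2.

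**Figure D2:**
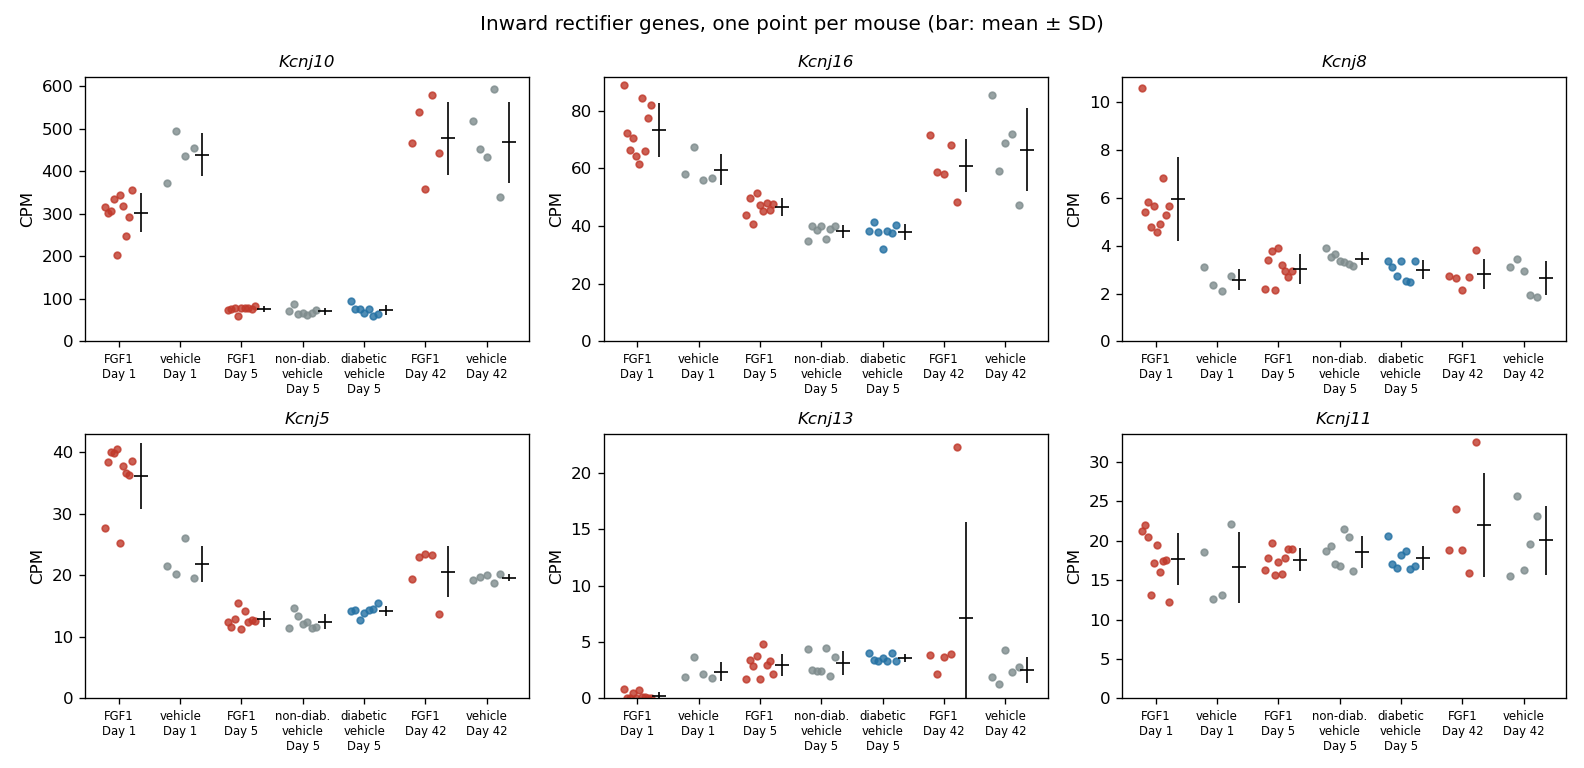
Levels in CPM of 6 inward rectifier genes, with 1 point per mouse and a bar for the mean ± SD (cut at zero where it would pass below), in the 7 groups (FGF1 red, non-diabetic vehicle grey, diabetic vehicle blue). On Day 1 the FGF1-treated mice lie below the vehicle-treated mice for Kcnj10 and Kcnj13 and above them for Kcnj8, and 1 FGF1-treated mouse of Day 42 reaches 22.3 CPM of Kcnj13.

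Of the 9 accessory subunits of Kv channels, 2 were higher and 2 lower on Day 1. Kcnip3 encodes calsenilin, a calcium sensor that binds Kv4 channels and also represses transcription in the nucleus. It ran from 94.1 to 154 CPM in FGF1-treated mice (median 122), and was 64.0, 49.9, 56.5 and 72.9 CPM in vehicle-treated mice. The log2 FC was 1.01 ± 0.11, a 2.02-fold rise (adjusted p 3.38e-10 by edgeR), with every FGF1-treated mouse above every vehicle-treated mouse. Its relative Kcnip4 moved the other way, at 63.0 to 94.4 CPM (median 80.2) against 119, 155, 107 and 108 CPM, again without overlap. The log2 FC was -0.60 ± 0.10 (adjusted p 2.21e-06), and -0.47 without vehicle-treated mouse 2. Kcnip2 had a log2 FC of 0.52 ± 0.20 (adjusted p 0.0325), which was not called in 5 of 11 alternatives, among them those without vehicle-treated mouse 2 (adjusted p 0.134) or mouse 4 (0.0642), and Kcnip1 had -0.35 ± 0.06 with no overlap of the groups and no call. Kcne1l, a single-span subunit, fell (log2 FC -0.71 ± 0.15, adjusted p 0.000178), from 8.13 ± 1.28 CPM (SD, n = 4) to 5.16 ± 1.16 CPM (SD, n = 10).

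Of the 36 Kv pore subunits, 2 were higher and 3 lower. Kcnh4, a channel of the ether-a-go-go family found mostly in brain, ran from 3.49 to 11.4 CPM in FGF1-treated mice (median 5.66), and was 2.67, 1.55, 2.86 and 2.87 CPM in vehicle-treated mice. The groups did not overlap, with a log2 FC of 1.18 ± 0.29 (adjusted p 0.000767 by edgeR, 0.141 by limma). Kcnh7 of the same family fell (log2 FC -0.62 ± 0.14, adjusted p 0.000392), by -0.48 and with no call without vehicle-treated mouse 2. Kcna1, which encodes Kv1.1 of axons, had 3.07 ± 1.68 CPM (SD, n = 10) against 4.78 ± 1.29 CPM (SD, n = 4), a log2 FC of -0.85 ± 0.22 (adjusted p 0.0019). Its exact permutation p, two-sided and unadjusted, was 0.0719. The remaining calls rested on low counts: Kcng3, a silent subunit, had 0 to 2 counts in FGF1-treated and 0 to 6 counts in vehicle-treated mice, and Kcnq1 had 1 to 38 and 10 to 26 counts. Both were lost when single vehicle-treated mice were left out, Kcng3 without mouse 3 (adjusted p 0.0771) or mouse 4 (0.232) and Kcnq1 without mouse 2 (0.117) or mouse 3 (0.196).

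Past the adjusted p but short of the limit on size were 8 further Kv pore genes, 2 higher and 6 lower. Kcnd2, the partner of the Kcnip genes, had a log2 FC of -0.45 ± 0.10 (adjusted p 0.000424 by edgeR) and was called without vehicle-treated mouse 4 (-0.51). Kcnq3 and Kcnq5, of the M-current, had -0.38 ± 0.14 and -0.42 ± 0.15 (adjusted p 0.0224 for each). Without vehicle-treated mouse 2 they had -0.23 (adjusted p 0.232) and -0.31 (0.136). Higher were Kcnf1, a silent subunit, by 0.33 ± 0.12 (adjusted p 0.0266) and Kcna5, which encodes Kv1.5, by 0.41 ± 0.14 (adjusted p 0.0123), with adjusted p of 0.0848 for Kcnf1 without vehicle-treated mouse 1 and 0.0747 for Kcna5 without mouse 2. Of these 8 genes, 7 missed the adjusted p in at least 1 of those fits, the exception being Kcnd2.

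Of the 9 tandem-pore genes, 1 was called on Day 1. Kcnk13, which in brain is known as a leak channel of microglia, ran from 8.94 to 13.9 CPM in FGF1-treated mice (median 10.7), and was 6.68, 6.13, 6.05 and 7.39 CPM in vehicle-treated mice. The groups did not overlap, and the log2 FC was 0.73 ± 0.11 (adjusted p 2.64e-07 by edgeR). Of 10 microglia markers 6 were higher and 1 lower, and their summed level was 275 to 372 CPM against 238 to 274 CPM, and its part in the level of Kcnk13 was not tested. Kcnk2, a channel gated by stretch and lipids, and Kcnk1 lay below all vehicle-treated mice in every FGF1-treated mouse without being called, with log2 FC of -0.41 ± 0.08 and -0.21 ± 0.09. Kcnk2 passed the adjusted p (4.06e-05 by edgeR, and at most 0.000812 with a mouse left out) and missed only the limit on size. Kcnk1 did not pass it (0.0636).

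Of the 8 calcium-activated subunits, 1 was higher and 1 lower, and of the 2 sodium-activated channels 1 was lower. Kcnn2, a small-conductance channel of the afterhyperpolarization that follows spikes, ran from 9.78 to 15.9 CPM in FGF1-treated mice (median 13.8), and was 22.9, 30.6, 21.6 and 20.4 CPM in vehicle-treated mice. The log2 FC was -0.82 ± 0.11 (adjusted p 3.54e-08 by edgeR), with no overlap. Kcnmb1, the smooth muscle subunit of the large-conductance channel, rose (log2 FC 0.89 ± 0.21, adjusted p 0.000546, 0.282 by limma), while the pore gene Kcnma1 had -0.36 ± 0.10 (adjusted p 0.00402) and was not called. Kcnt1, whose channel opens with sodium entry, ran from 120 to 184 CPM (median 168) against 274, 202, 304 and 267 CPM, again without overlap. Its log2 FC was -0.70 ± 0.10 (adjusted p 1.56e-07). Its relative Kcnt2 had -0.50 ± 0.12 (adjusted p 0.00075), at the limit, and -0.32 without vehicle-treated mouse 2. Kcnrg was lower (log2 FC -0.60 ± 0.24, adjusted p 0.0364) and lost the call without vehicle-treated mouse 4 (adjusted p 0.243).

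The exact permutation test of mice, two-sided and unadjusted, gave 0.002 for 9 of the 18 called genes, the smallest p that 10 against 4 mice allow. It was under 0.05 for 15 of the 18, the others being Kcna1, Kcng3 (0.0659) and Kcnq1 (0.0939).

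**Figure D3:**
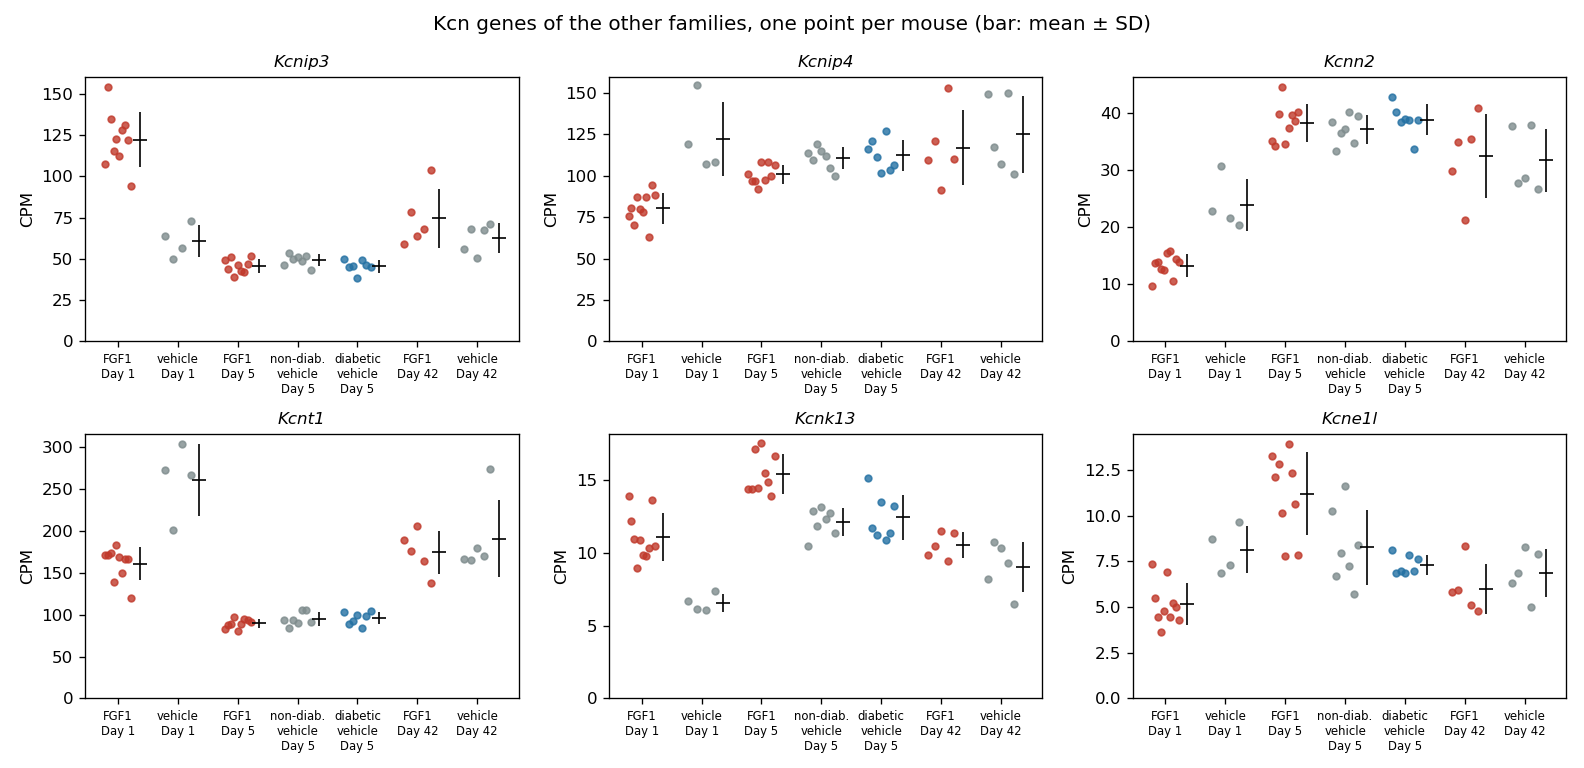
Levels in CPM of 6 Kcn genes outside the inward rectifiers, with 1 point per mouse and a bar for the mean ± SD, in the 7 groups. On Day 1 the FGF1-treated mice lie above the vehicle-treated mice for Kcnip3 and Kcnk13 and below them for Kcnip4, Kcnn2 and Kcnt1.

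On Day 5, 0 of the 78 genes were called against vehicle-treated mice labelled non-diabetic by edgeR, where 1.53% of all genes were called. Of the members, 11 had an unadjusted p under 0.05, or 14.1%, against 16.5% of all genes, and DESeq2 called 0 members and limma 1. Against mice labelled diabetic 2 were called, where 2.85% of all genes were called. These comparisons share their FGF1-treated mice. Kcne1l, lower on Day 1, was higher against diabetic vehicle (log2 FC 0.61 ± 0.14, adjusted p 0.00366), at 7.77 to 13.9 CPM (median 12.1) against 6.85 to 8.13 CPM (median 6.96). Against non-diabetic vehicle, at 5.72 to 11.6 CPM (median 7.96), it had 0.43 ± 0.14 (adjusted p 0.0775). There Kcne1l was called with the vehicle groups merged (0.52, adjusted p 0.00214) and without the 2 deepest FGF1 libraries (0.51, 0.0457). Kcns1, a silent Kv subunit, was lower against diabetic vehicle (log2 FC -0.68 ± 0.21, adjusted p 0.03), at 1.75 to 3.05 CPM (median 2.30) against 2.98 to 4.30 CPM (median 3.84). Without the 2 deepest FGF1 libraries the log2 FC of Kcns1 was again -0.68, at an adjusted p of 0.0708. Against non-diabetic vehicle Kcns1 had -0.51 ± 0.21 (adjusted p 0.191), but it was called with the vehicle groups merged (-0.60, adjusted p 0.0212), with Day 5 fitted alone (-0.50, 0.0047) and by limma (-0.78, 0.00456).

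Past the adjusted p alone were 2 members against non-diabetic and 4 against diabetic vehicle, where 4.63% and 9.18% of all genes were. Kcnk13 and Kcnj16 were among them in both comparisons. Kcnk13 ran from 13.9 to 17.5 CPM in FGF1-treated mice (median 14.9), 10.5 to 13.1 CPM in non-diabetic (median 12.3) and 10.8 to 15.2 CPM in diabetic vehicle-treated mice (median 11.7). Its log2 FC was 0.35 ± 0.09 (adjusted p 0.0165) and 0.31 ± 0.09 (adjusted p 0.0226). Kcnj16 ran from 40.9 to 51.7 CPM (median 47.2), 34.7 to 40.2 CPM (median 39.1) and 32.1 to 41.5 CPM (median 38.2), with log2 FC of 0.29 ± 0.09 against each (adjusted p 0.0444 and 0.0224). Against non-diabetic vehicle Kcnj16 no longer passed the adjusted p with DESeq2 size factors (0.0539) or without the 2 deepest FGF1 libraries (0.0915). Both genes lay above every non-diabetic vehicle-treated mouse in all 9 FGF1-treated mice, where the groups did not overlap for 3.93% of all genes. Microglia markers summed to 340 to 416 CPM in FGF1-treated mice, 271 to 441 CPM in non-diabetic and 243 to 284 CPM in diabetic vehicle-treated mice, with 1 of 10 higher against the former and 7 of 10 against the latter. Astrocyte markers summed to 5858 to 6374 CPM, 5143 to 5351 CPM and 5020 to 5607 CPM in the same order, with 2 of 12 higher in each comparison. Mature oligodendrocyte markers summed to 6522 to 7417 CPM, 4734 to 6224 CPM and 4312 to 6355 CPM, with 3 of 8 higher in each. Those of oligodendrocyte precursors summed to 662 to 754 CPM, 524 to 557 CPM and 514 to 542 CPM, with 4 of 10 higher in each. The astrocyte and both oligodendrocyte sums in FGF1-treated mice overlapped those of neither vehicle group. The microglia sum overlapped that of the non-diabetic one through mouse 2 of that group alone, at 441 CPM, with its other mice at 271 to 288 CPM. The part of these cell types in the levels of Kcnj16 and Kcnk13 was not tested. The astrocyte marker and water channel Aqp4, which lies with Kir4.1 on astrocyte endfeet, rose (log2 FC 0.98 ± 0.14 against non-diabetic vehicle, adjusted p 2.35e-06 by edgeR), whereas Kcnj10 had 0.10 ± 0.11 (adjusted p 0.74).

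Between the vehicle groups of Day 5, 0 members and 0% of all genes were called by edgeR. DESeq2 and limma also called 0 members, and 1 member had an unadjusted p under 0.05, as did 1.35% of all genes.

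On Day 42, 0 members and 0% of all genes were called by edgeR, and DESeq2 and limma called 0 members as well. An unadjusted p under 0.05 was reached by 13 of the 78, or 16.7%, all higher in FGF1-treated mice, and by 5.45% of all genes. Without FGF1-treated mouse 5 it was reached by 0 of the 78 and by 2.22% of all genes. The groups overlapped for every member, where 0.267% of all genes had no overlap. The median log2 FC was 0.08 over the members and -0.01 over all genes, and 0.02 over the members without FGF1-treated mouse 5. The smallest p belonged to Kcnj13, at 3.82, 2.21, 3.67, 3.92 and 22.3 CPM in FGF1-treated mice and 1.87, 1.26, 4.33, 2.37 and 2.77 CPM in vehicle-treated mice. Its log2 FC of 1.46 ± 0.45 (p 0.0022, adjusted p 0.407) was 0.43 ± 0.38 without the mouse at 22.3 CPM. Kcnv1, a silent Kv subunit, followed at 7.06, 7.19, 10.9, 9.40 and 46.3 CPM against 10.4, 6.88, 11.3, 7.23 and 5.78 CPM. Its log2 FC of 0.93 ± 0.29 (adjusted p 0.407) was 0.06 ± 0.18 without the same mouse. Kcnh1 had 0.44 ± 0.15 (adjusted p 0.483) and 0.27 ± 0.14 without it.

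That mouse, number 5 of the FGF1-treated mice, had the highest level of the day for 38 of the 78 members and the lowest for 5. Chosen after their values were seen, Kcnh3 was at 31.7 CPM in it and at 2.04 to 7.70 CPM in the other 9 mice, and Kcnj4 at 22.3 and 1.95 to 7.42 CPM. The 6 forebrain excitatory neuron markers with counts summed to 2322 CPM in this library and 486 to 686 CPM in the others. The 7 choroid plexus markers summed to 2062 and 283 to 478 CPM, and 14 hypothalamus markers to 499 and 783 to 1376 CPM. Neuron markers summed to 8528 and 6108 to 7892 CPM and striatum markers to 498 and 213 to 397 CPM. Tanycyte markers, at 197 and 98.9 to 141 CPM, also lay apart, and astrocyte (5816 and 4794 to 5673 CPM), microglia (343 and 272 to 334 CPM) and mature oligodendrocyte markers (9070 and 6302 to 9054 CPM) lay just above the other mice, whereas thalamus markers, at 961 CPM, lay within the 460 to 1925 CPM of the other mice. Their part in the Kcn levels of this library was not tested.

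**Figure D4:**
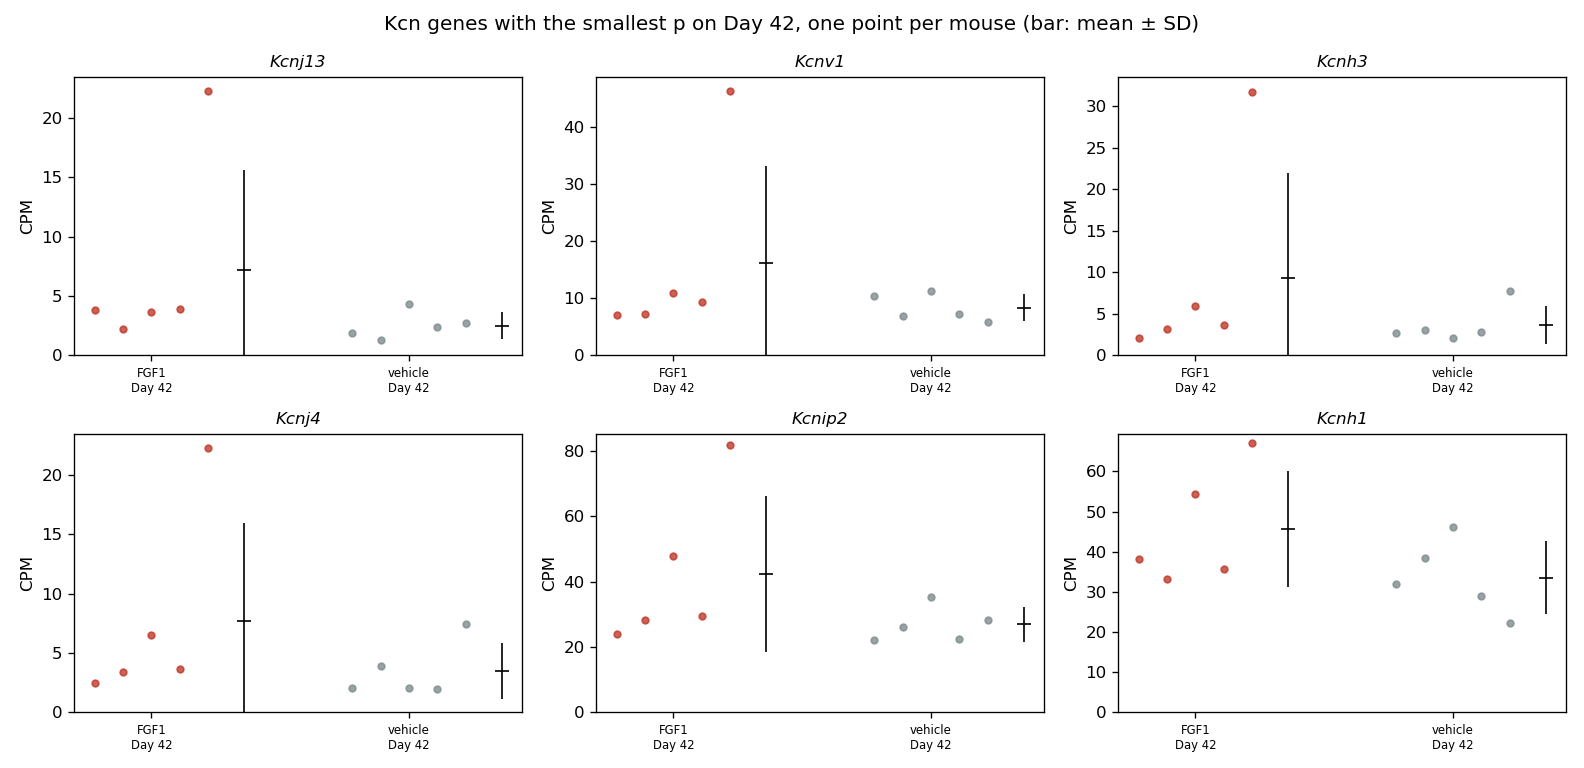
Levels in CPM on Day 42 of 6 Kcn genes, with 1 point per mouse and a bar for the mean ± SD (cut at zero where it would pass below), in FGF1-treated (red) and vehicle-treated (grey) mice. The same FGF1-treated mouse is highest for all 6, at 22.3 CPM for Kcnj13 and 46.3 CPM for Kcnv1.

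To ask whether the FGF1 effect changed with time, the log2 FC of a day was subtracted from that of another, in which preparation cancels only as far as it acts alike on both groups of a day. Between Day 5, against non-diabetic vehicle, and Day 1, it differed for 14 members, 6 upward and 8 downward, where 15.8% of all genes were called. Between Day 42 and Day 1 it differed for 16 members, where 16.4% of all genes were called, and for 15 of the 16 without FGF1-treated mouse 5 of Day 42. Between Day 42 and Day 5 edgeR called 0 members and DESeq2 called 1, Kcnh3, where 0.710% of all genes were called. The difference of Kcnh3 was 2.21 by edgeR (adjusted p 0.0607) and 0.93 ± 0.46 (adjusted p 0.673) without FGF1-treated mouse 5 of Day 42. An unadjusted p under 0.05 was reached there by 19 members, or 24.4%, and 9.96% of all genes, and without that mouse by 3 members, or 3.85%, and 7.42% of all genes. Kcnj10 was among the upward differences, by 0.64 ± 0.16 (adjusted p 0.00184) from Day 1 to Day 5 and 0.57 ± 0.17 (adjusted p 0.0122) to Day 42, the second of which fell under 0.5 in 3 of 20 alternatives (0.47 at the lowest, without vehicle-treated mouse 5 of Day 42 and by limma, and 0.49 without FGF1-treated mouse 4). Kcnj13 differed by 3.42 ± 0.66 and 4.98 ± 0.68, the second of which was 3.95 ± 0.56 without FGF1-treated mouse 5 of Day 42. Kcnn2 differed by 0.86 ± 0.15 and 0.84 ± 0.16. Downward were Kcnip3, by -1.11 ± 0.15 and -0.76 ± 0.16, Kcnj8, by -1.32 ± 0.22 and -1.05 ± 0.23, and Kcnj5, by -0.70 ± 0.14 and -0.67 ± 0.15. Kcne1l, which changed sign between Days 1 and 5, differed by 1.14 ± 0.21 (adjusted p 4.25e-05). Without FGF1-treated mouse 5 the differences to Day 42 were 0.59 for Kcnj10, 0.75 for Kcnn2, -0.91 for Kcnip3, -1.17 for Kcnj8 and -0.56 for Kcnj5, all called. These differences share the Day 1 mice.

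**Figure D5:**
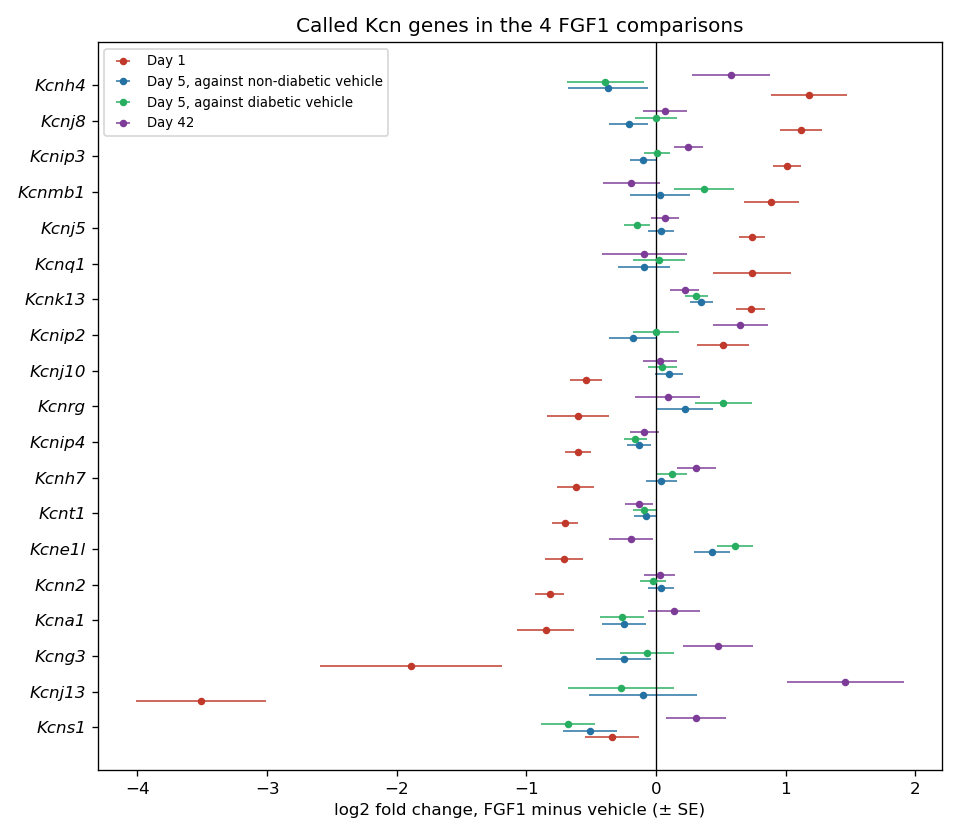
Log2 fold change of FGF1 minus vehicle with its SE on the horizontal axis for the 18 genes called on Day 1 and Kcns1, in the 4 FGF1 comparisons. Most Day 1 points (red) lie apart from those of Days 5 and 42, as for Kcnip3 at 1.01 on Day 1 and 0.25 on Day 42 (0.10 without FGF1-treated mouse 5), and Kcne1l lies below zero on Day 1 and above it on Day 5.

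Of the other genes that handle potassium, the lists of partners and of pumps were counted in the same way. On Day 1, when 19.5% of all genes were called, 1 of 17 measured partners of potassium channels was (5.88%), Lgi1, a secreted protein of the Kv1 complex, which fell (log2 FC -0.54 ± 0.09, adjusted p 1.46e-06 by edgeR). Of 15 pumps and cotransporters 1 was called on that day (6.67%), the potassium-chloride cotransporter Slc12a4, which rose (log2 FC 1.89 ± 0.15, adjusted p 2.47e-14). With no limit on size, 10 of the 17 partners and 5 of the 15 pumps and cotransporters had an adjusted p under 0.05 by edgeR on Day 1. Of all genes, 45.0% reached it. Among the partners, 6 had a log2 FC above zero and 11 below. The astrocyte sodium pump subunit Atp1b2 had a log2 FC of 0.48 ± 0.07 on Day 1. On Day 5, 1 of the 15 was called against each vehicle group, Fxyd1, a regulator of the sodium pump (log2 FC 0.86 ± 0.15 and 0.81 ± 0.15, adjusted p 9.44e-05 and 0.000131), and on Day 42 edgeR called 0 of either list, where 0 partners and 1 pump gene had an unadjusted p under 0.05, and 0 of either without FGF1-treated mouse 5.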

How the data were processed

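Libraries of mRNA from the hypothalamus of 47 mice were analysed. The authors aligned the reads with STAR and deposited whole-number counts per gene without normalization. The build is given in the submitters' processing notes as GRCh38, although the samples are mouse. The counting program and its strand setting are not given in the sources used here, and 24 of the 78 Kcn genes overlap an exon of another gene on the other strand and 2 on the same strand (Kcnab2 and Kcnk4). Each gene of the table has counts in at least some libraries, so genes left out of it were not tested, and 21 further Kcn symbols of GENCODE M21 have no row. Coordinates and exon lengths are from GENCODE M21 on GRCm38.

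Counts were scaled by TMM and fitted with edgeR 4.0.16 under R 4.3.3 with 1 mean for each of the 7 groups. Comparisons used the quasi-likelihood F test, with p-values adjusted by Benjamini-Hochberg over all 14221 genes. A gene was called at an adjusted p under 0.05 and an absolute log2 FC above 0.5. SE is the log2 FC divided by the root of F. Named genes were also compared on log2(CPM + 0.5) by the exact permutation test. Mice are numbered in accession order. No 2 libraries of a group were duplicates, with a smallest chi-square per degree of freedom of 1.7. In simulated data, edgeR recovered 86% of genes changed by 0.75 (log2) and 99% of those changed by 1.5 on Day 1. On Day 42 it recovered 83% and 97%. Each simulated gene had its mean over all libraries, with no difference between days and no library set apart. The recovery therefore does not hold for members whose level on a day lies far below that mean.

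Named were all genes called between FGF1 and vehicle, the most abundant gene of each family, Kcnj10, Kcnj16, Kcnj11, Kcnj8, Kcnj13, Kcnq3, Kcnma1 and Kcnk1, and the 3 with the smallest p on Day 42. Other genes named were chosen after their values were seen. The members and lists were chosen with earlier results of these data known. As alternatives, the counts were fitted with DESeq2 1.42.0, with edgeR on DESeq2 size factors and with limma 3.58.1 after quantile normalization, and also with no filter, at least 10 counts in every library, each day fitted alone, no limit on the fold change, merged Day 5 vehicle groups, and single mice left out. Labels do not say whether mice shared a litter or cage. The p-values of edgeR set each difference against a spread between mice that was estimated over all 7 groups together, with information shared between genes.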

Additional observations from a re-analysis of the deposited data

Results flagged for a closer look

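Among 29 named genes in 7 groups each, 25 of 203 groups held 1 mouse far from the others by Dixon's criterion. For a single group of a gene fixed beforehand, chance gives this in about 1 of 20. That rate is no yardstick here, because some genes, such as Kcnh3 and Kcnj4, were named after their values were seen. The genes also share their mice, so the groups are not independent. In FGF1-treated mouse 5 of Day 42 the values far from the others were Kcnh3 at 31.7 CPM, Kcnj13 at 22.3 CPM, Kcnj4 at 22.3 CPM, Kcns1 at 8.94 CPM and Kcnv1 at 46.3 CPM. In vehicle-treated mouse 5 of Day 42 they were Kcnh3 at 7.7 CPM, Kcnh4 at 3.67 CPM, Kcnq1 at 0.931 CPM and Kcnt1 at 274 CPM. In FGF1-treated mouse 1 of Day 1, the library of lowest depth, they were Kcna1 at 7.33 CPM, Kcnh4 at 11.4 CPM and Kcnj8 at 10.6 CPM. On Day 1 there were also vehicle-treated mouse 2 with Kcnh4 at 1.55 CPM and Kcnj13 at 3.7 CPM, vehicle-treated mouse 1 with Kcnh1 at 45.8 CPM and FGF1-treated mouse 10 with Kcnv1 at 11.1 CPM. On Day 42 FGF1-treated mouse 3 had Kcna1 at 35 CPM. On Day 5 FGF1-treated mouse 3 had Kcnh4 at 2.55 CPM and Kcnj4 at 17.2 CPM, and FGF1-treated mouse 4 had Kcnj10 at 59.5 CPM. Diabetic vehicle-treated mouse 4 had Kcnip3 at 38.2 CPM and Kcnj16 at 32.1 CPM, diabetic vehicle-treated mouse 1 had Kcna1 at 96.8 CPM and non-diabetic vehicle-treated mouse 2 had Kcnmb1 at 2.74 CPM and Kcnd2 at 179 CPM.

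The FGF1 effect differed between days, by the edgeR test of the difference, for further named genes. From Day 1 to Day 5 it moved by 1.14 (log2) for Kcne1l, 0.66 for Kcnh7, 0.64 for Kcnj10, 3.42 for Kcnj13, 0.86 for Kcnn2 and 0.62 for Kcnt1. It moved by -1.72 for Kcnh3, -1.55 for Kcnh4, -0.70 for Kcnip2, -1.11 for Kcnip3, -0.70 for Kcnj5, -1.32 for Kcnj8 and -0.86 for Kcnmb1. From Day 1 to Day 42 it moved by 0.98 for Kcna1, 2.37 for Kcng3, 0.93 for Kcnh7, 0.50 for Kcnip4, 0.57 for Kcnj10, 4.98 for Kcnj13, 0.84 for Kcnn2 and 0.57 for Kcnt1. It moved by -0.76 for Kcnip3, -0.67 for Kcnj5, -1.05 for Kcnj8, -0.50 for Kcnk13 and -1.08 for Kcnmb1. Without FGF1-treated mouse 5 of Day 42 the difference was 0.92 for Kcna1, 2.13 for Kcng3, 0.72 for Kcnh7, 0.52 for Kcnip4, 0.65 for Kcnt1, -0.53 for Kcnk13 and -1.12 for Kcnmb1. The difference of Kcnip4 to Day 42 was not called in 7 of 20 alternatives, being 0.38 without vehicle-treated mouse 2 of Day 1, and that of Kcnt1 was 0.49 and not called without vehicle-treated mouse 3 of Day 1. The difference to Day 42 of Kcnk13 was not called in 12 of 20 alternatives, down to -0.35 by limma, and that of Kcnj10 in 3 of 20, at 0.47 by limma, 0.49 without FGF1-treated mouse 4 and 0.47 without vehicle-treated mouse 5 of Day 42. That of Kcng3 was not called in 3 of 19, by limma (adjusted p 0.242) and without vehicle-treated mice 3 (0.0538) or 4 (0.161) of Day 1, and that of Kcnmb1 was not called by limma (0.446). The difference to Day 5 of Kcnip2 was not called in 9 of 12 alternatives (adjusted p up to 0.143), among them without vehicle-treated mice 1, 2 or 4 of Day 1, that of Kcnmb1 in 4 of 11, among them without vehicle-treated mice 1 (0.0515) or 4 (0.0858) of Day 1, that of Kcnh3 without vehicle-treated mouse 2 of Day 1 (0.0986) and that of Kcnh4 by limma (0.157). The Day 1 levels of Kcng3 rest on at most 6 counts per library.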

How the results depend on the processing

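The count of called members was 18 on Day 1 and 34 with no limit on the fold change, and 13 to 21 with single mice left out, the lowest without vehicle-treated mouse 2, and was lowest, at 12, with at least 10 counts in every library, where 51 members were tested. Against non-diabetic vehicle on Day 5 the count of 0 became 2 with the vehicle groups merged, 1 with Day 5 fitted alone, 1 under quantile normalization with limma, 1 without the 2 deepest FGF1 libraries and 2 with no limit on the fold change. Against diabetic vehicle the count of 2 became 0 under the same filter, 1 without the 2 deepest FGF1 libraries and 4 with no limit on the fold change. Between Day 42 and Day 5 the count of 0 became 1 by DESeq2 and ran from 0 to 3 with single mice of Day 42 left out, the highest without vehicle-treated mouse 5, with 2 without FGF1-treated mouse 1 and 1 without each of FGF1-treated mice 2, 3 and 4. Beyond the changed samples, filters and limits themselves, the cause was not tested. Values near zero changed sign for Kcnj11 on Day 1 (-0.01 by limma, and -0.05 to 0.23 with single mice left out, below zero without vehicle-treated mice 2 or 3), and for Kcnj10 on Day 42 (-0.07 to 0.13 with single mice left out, below zero without FGF1-treated mice 2 or 4 or vehicle-treated mouse 5). Against diabetic vehicle on Day 5 they did for Kcnj8 (-0.01 by DESeq2 and with its size factors, -0.12 by limma), Kcnn2 (0.00 with at least 10 counts) and Kcnip3 (-0.02 without the 2 deepest libraries). No paired analysis was possible because the labels give no replicate numbers that the groups share. Day and preparation coincide, and Day 5 libraries were shallower, with medians of 8937263 to 10052056 counts per group.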
